A study of Mus musculus with 4 samples.

Results

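Kinesins, dyneins and myosins are the motor proteins that carry cargo along the cytoskeleton, and 54 of the 6940 genes listed in the deposited table encode their subunits. The members were all listed genes whose symbols name a kinesin or kinesin light chain (Kif, Klc), a dynein or dynactin subunit (Dync, Dynl, Dnah, Dnal, Dctn) or a myosin heavy or light chain (Myo, Myh, Myl). No measured value was used beyond the listing, which itself selected for difference between the genotypes. There were 21 kinesin genes, 17 dynein and dynactin genes and 16 myosin genes. RNA was sequenced from oligodendrocytes, which make myelin in the brain, in 2 libraries of conditional knockout cells and 2 control libraries. The knockout cells, called cKO below, had the genotype Olig1cre/+;Zdhhc5fl/fl, in which Cre recombinase expressed from the Olig1 locus deletes Zdhhc5, an enzyme that attaches palmitate to proteins. The control cells were Zdhhc5fl/fl, without Cre, so that both genotypes carried the floxed alleles and the cKO cells alone had a changed Olig1 locus, whose effect and that of losing Zdhhc5 cannot be told apart. Cells of both genotypes were taken from C57BL/6 cortex on postnatal day 5, panned on antibodies against GalC and then O4, and grown for 6 days. They were harvested after 24 h of differentiation with the thyroid hormone T3 at 40 ng/mL.

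Kinesins mostly walk toward the growing ends of microtubules, at the periphery of a cell, and cytoplasmic dynein, with its activator dynactin, walks back toward the cell centre. Myosins move along or pull on actin filaments. In oligodendrocytes, granules that hold Mbp mRNA travel along microtubules into the processes that form myelin, a transport that needs Kif1b in zebrafish. Myosin II, the contractile myosin, forms bundles with actin, whose disassembly accompanies the wrapping of myelin.

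Values are normalised reads, meaning reads per gene divided by 1 size factor per library by the authors. The listed genes held 20068016 and 13672254 reads in cKO 1 and 2, and 17077509 and 16773675 in control 1 and 2, of which motor genes took 1.04% and 1.05% in the cKO libraries and 1.24% in each control. All 12 oligodendrocyte markers, such as Mbp, were listed and lower, and they summed to 107919 and 110968 normalised reads in the cKO libraries, against 469107 and 473194 in the controls. Of 12 astrocyte markers 11 were listed, 9 higher and 2 lower. They summed to more, 825550 and 818346 in the cKO libraries and 549965 and 551131 in the controls. Gfap alone held 557247 and 553584 of these in the cKO libraries and 351481 and 352111 in the controls. The labelled oligodendrocytes therefore held abundant transcripts of a second glial type. Microglia markers had 6 of 12 listed, all 6 higher, and precursor markers 5 of 6 listed, 3 higher and 2 lower. In bulk RNA, fewer cells of a type and less RNA per cell cannot be told apart. Zdhhc5 itself was not analysed here, so the genotype labels were not checked by its level. Separate cultures or animals for the libraries of one genotype are not stated in the labels, so p-values measure only the spread between these libraries, which may be technical.

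The comparison asks how loss of Zdhhc5 from oligodendrocytes went with motor gene mRNA. Of the 54 motor genes, 32 were lower and 22 higher in cKO cells (limma, adjusted p under 0.05 for each). Most kinesin genes fell, 17 of 21. Most myosin genes rose, 11 of 16, though 5 of 16 did with a trend with GC content removed. Dynein and dynactin genes were divided, 10 lower and 7 higher. Among all 6940 listed genes 53.3% were lower and 46.7% higher, so the motor genes as a whole, 59.3% lower and 40.7% higher, were near the background. Lower members made up 81.0% of kinesins, 58.8% of dyneins and dynactin and 31.2% of myosins. The median log2 fold change, cKO over control, was -0.36 for kinesins, -0.26 for dyneins and dynactin and 0.39 for myosins, against -0.22 over all listed genes. With relative log expression factors these medians were -0.17, -0.06 and 0.58, against -0.03 over all listed genes. With the length trend removed they were -0.25, -0.02 and 0.46, and with the GC trend removed -0.37, -0.09 and 0.04, against -0.06 over all listed genes. No test was run between the classes.

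With relative log expression factors, which raised the median log2 fold change of all listed genes by 0.191, 13 kinesins were lower and 4 higher and 11 myosins were higher and 5 lower, where 46.8% of listed genes were higher and 42.0% lower. The count of higher myosins depended on the GC trend. Myosin transcripts had a median GC content of 53.4%, against 49.4% over all listed genes, 48.9% for kinesins and 48.4% for dyneins and dynactin. With the trend of fold change with GC content across all listed genes removed, 5 of 16 myosins were called higher and 4 lower, where 29.0% of listed genes with a GC value were higher and 40.4% lower. Kinesins then had 14 of 21 lower and 1 higher. With the trends with GC content and gene length both removed, 9 myosins were higher and 4 lower, and 13 kinesins were lower and 1 higher. Of listed genes 28.8% were then higher and 41.7% lower. Fold changes with a trend removed are given beside many of the members below, and a value given alone may also have moved.

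The table lists only genes with an adjusted p-value under 0.05 in the authors' test, which is 40.0% of the 17347 genes behind that adjustment. Listing was therefore a selection for difference, limma called 100% of the listed genes in the same libraries, and a call here is not independent evidence. Of 137 protein-coding symbols in the GENCODE M21 annotation that match the pattern, 39.4% were listed, near that 40.0%. The share was 44.7% for kinesins, 42.5% for dyneins and dynactin and 32% for myosins. By role it was 75% for cytoplasmic dynein (12 of 16) and 68.4% for cargo kinesins with their light chains (13 of 19). It was 16.7% for dynactin (1 of 6), 22.2% for axonemal dyneins (4 of 18) and 14.3% for myosin heavy chains named Myh (2 of 14). Kif5a, Kif14, Dctn1, Myh10 and Myl12b were not among the listed genes and were not analysed here.

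In all 54 members both cKO values lay on one side of both control values, above them in 22 and below them in 32, against 46.7% above and 53.3% below among listed genes. Changes of at least 1.5-fold were falls in 17 members and rises in 8, with backgrounds of 27.6% and 17.4% of listed genes.

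**Figure D1:**
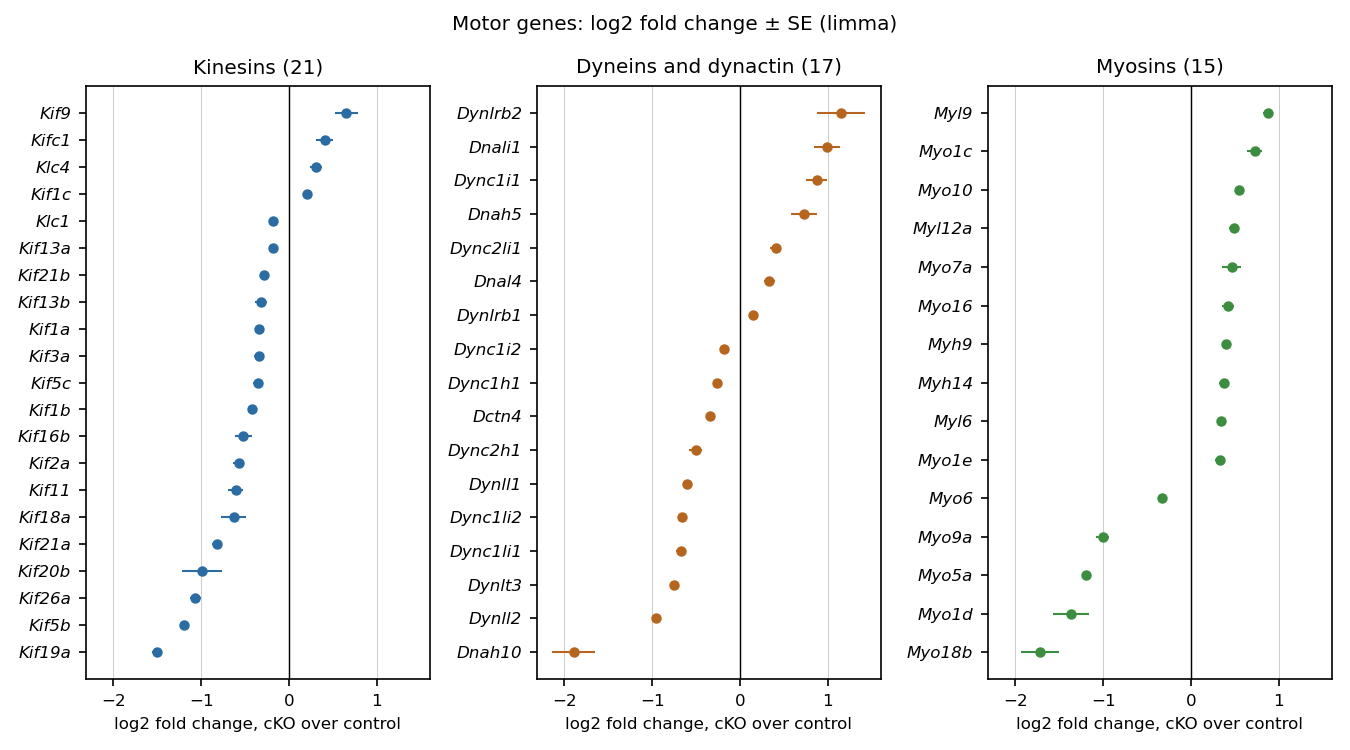
Log2 fold change of each motor gene, cKO over control, with its standard error (limma, 2 libraries per genotype). Kinesins lie mostly left of 0 (17 of 21), myosins mostly right of it (10 of the 15 shown), and dyneins and dynactin on both sides (10 left, 7 right), and 20 of the 54 members change sign under another scaling or with a trend removed.

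Among kinesins that carry cargo, with their light chains, 11 of 13 fell and 2 rose. Kif5b, the widely expressed heavy chain of kinesin-1, the classical transport motor, fell most. It had 2876 and 2889 normalised reads in the cKO libraries, against 6551 and 6700.2 in the controls, 2.30-fold lower (-1.20 ± 0.04 on the log2 scale, limma adjusted p 2.92e-18). The error after ± is the standard error. The libraries of each genotype were close together and the genotypes lay far apart. With both trends removed the log2 fold change was -0.67. Kif5c, the kinesin-1 heavy chain found mainly in neurons, had 1167 and 1171 normalised reads in the cKO libraries and 1545 and 1449.8 in the controls, 1.28-fold lower. Kif5b was thus lower relative to Kif5c in the cKO libraries. Per kilobase of gene length, as deposited, Kif5b stood at 2.38 times Kif5c in both cKO libraries, against 4.09 and 4.46 times in the controls. This difference in the log2 ratio, -0.84, was -0.46 with both trends removed. Klc1, a light chain that ties kinesin-1 to cargo, was a little lower, with 5908 and 5741 normalised reads in the cKO libraries and 6710 and 6446 in the controls. That difference, -0.17 on the log2 scale, turned to 0.02 with relative log expression factors. It was larger in size with the GC trend removed (-0.57) or both trends removed (-0.56). Klc4, another light chain, was higher, with 932 and 1013 in the cKO libraries against 749 and 819.6 in the controls (log2 fold change 0.31), a sign that turned with the GC trend removed (-0.13).

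Kif1a, Kif1b and Kif1c belong to the kinesin-3 family, whose members carry vesicles. Kif1a, which moves synaptic vesicle precursors in neurons, had the highest level of all kinesin genes, 1769 normalised reads per kilobase in cKO cells and 2244 in controls. Its values were 16397 and 16622 normalised reads in the cKO libraries and 20673 and 21204 in the controls, 1.27-fold lower (-0.34 ± 0.03 on the log2 scale, limma adjusted p 6.35e-10), and the fold change was -0.55 on the log2 scale with both trends removed. Kif1b had 17783 and 17533 in the cKO libraries and 23898 and 23529.8 in the controls (-0.42 ± 0.03 on the log2 scale, limma adjusted p 8.24e-12), a fall whose sign turned with the length trend alone removed (0.06). Kif1c was higher, with 7179 and 6876 in the cKO libraries against 6021 and 6169 in the controls (log2 fold change 0.20), and its sign turned with the GC trend removed (-0.16). The balance between the paralogs therefore shifted. Per kilobase, Kif1b was nearly level with Kif1c in the cKO libraries, at 1.02 and 1.05 times, and above it in the controls, at 1.64 and 1.58 times. That difference in the log2 ratio, -0.63, was -0.09 with both trends removed, whereas the difference of Kif1a against Kif1c was -0.55 and remained -0.51. Neuron markers, 10 of 12 listed with 7 higher and 3 lower, had a median log2 fold change of 0.595. They summed to 20028 and 19714 normalised reads in the cKO libraries and 25895 and 26486 in the controls. The sum was lower through Elavl3, Map2 and Dcx. Elavl3 had 2363 and 2232 in the cKO libraries against 7310 and 7585 in the controls. The part of neurons in the Kif1a and Kif5c values was not tested.

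Kif21a and Kif21b, kinesins that also restrain the growth of microtubules, both fell, by different amounts with the authors' scaling. Kif21a had 1195 and 1140.3 normalised reads in the cKO libraries against 2016 and 2102 in the controls, 1.76-fold lower (log2 fold change -0.82). Kif21b had 3492 and 3562 in the cKO libraries against 4254 and 4359.6 in the controls, a log2 fold change of -0.29. That value turned to 0.05 with the length trend removed and was not called with relative log expression factors (-0.10). With the GC trend removed Kif21a and Kif21b were both at -0.69. With both trends removed Kif21a was at -0.66 and Kif21b at -0.455. Kif13b, which binds the scaffold protein Dlg1, had 709.5 and 810.4 in the cKO libraries against 913 and 977 in the controls. Its log2 fold change of -0.32 also turned to 0.05 with the length trend removed and was not called with relative log expression factors (-0.13). Kif13b was lower still with the GC trend removed (-0.615) or both trends removed (-0.39). The remaining members were Kif3a, a motor of ciliary and vesicle transport, Kif16b, an endosome motor, and Kif13a, with log2 fold changes of -0.34, -0.52 and -0.18. Kif16b was at -0.25 and not called with both trends removed (limma adjusted p 0.0622). Kif13a was lower still with the GC trend removed (-0.475) or both trends removed (-0.35). The value of Kif13a turned with relative log expression factors (0.01) and with the length trend removed (0.015), and it was not called by edgeR (adjusted p 0.0792) or, with limma, without control 2 (adjusted p 0.155).

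Of 4 listed kinesins of the mitotic spindle and of cytokinesis, 3 fell and 1 rose. Kif20b, which acts in cytokinesis, had 44.9 and 38.0 normalised reads in the cKO libraries against 93.0 and 74.3 in the controls (-0.99 ± 0.23 on the log2 scale). Kif18a, which limits the length of the microtubules that hold chromosomes, had 127 and 125 in the cKO libraries against 192 and 198 in the controls (log2 fold change -0.63). Kif11, the motor that pushes the spindle poles apart, was 1.53-fold lower. These 3 transcripts had GC contents of 38.2% to 42.2%, and with the GC trend removed none of them was called lower, Kif20b at -0.37, Kif11 at -0.17 and Kif18a turned to 0.07. The same held with both trends removed, Kif20b being at -0.36. Kifc1, a spindle motor that walks in the opposite direction, was higher, with 433 and 428 in the cKO libraries against 313 and 336 in the controls. Its log2 fold change of 0.41 was 0.00 with the GC trend removed and turned to -0.03 with both trends removed. The mouse genome holds a near copy of Kifc1, Kifc5b, so its value is uncertain. Cycling-cell markers moved beside these genes. Of 14, 5 were listed, 4 lower and 1 higher, with sums of 3105 and 3083 normalised reads in the cKO libraries and 3910 and 4041 in the controls. Their median log2 fold change of -0.52 turned to 0.05 with both trends removed. Top2a and Cenpf then turned to 0.14 and 0.05, while Mki67 and Cenpe stayed lower (-0.34 and -0.485). The part of cycling cells in the values of the spindle kinesins was not tested.

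Of 4 listed kinesins of other roles, 3 fell and 1 rose. Kif19a, which shortens cilia in mice, had 925 and 902 normalised reads in the cKO libraries against 2597 and 2584 in the controls, 2.84-fold lower (-1.50 ± 0.05 on the log2 scale, limma adjusted p 1.42e-17). This was the steepest fall of the class, ahead of Kif5b. The Kif19a gene, ENSMUSG00000010021, lies on chromosome 11, 114765388 to 114790739 in GRCm38. Kif26a, an atypical kinesin whose motor domain lacks ATPase activity, had 585 and 603 in the cKO libraries against 1231 and 1256 in the controls, 2.09-fold lower. Their GC contents were 60.6% and 61.7%, and with both trends removed their log2 fold changes of -1.50 and -1.06 were larger in size, -1.93 and -1.39. Kif9, a kinesin of cilia and flagella, was higher, with 251 and 222 in the cKO libraries against 151 and 149 in the controls (0.65 ± 0.13 on the log2 scale). Kif2a, which takes microtubules apart at their ends, had a value of -0.57 on the log2 scale, turned to 0.11 with the GC trend removed. Exons of Dimt1 on the opposite strand cover 19.2% of Kif2a's exon bases, and since the strand setting of the counting is not given, its value is uncertain.

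**Figure D2:**
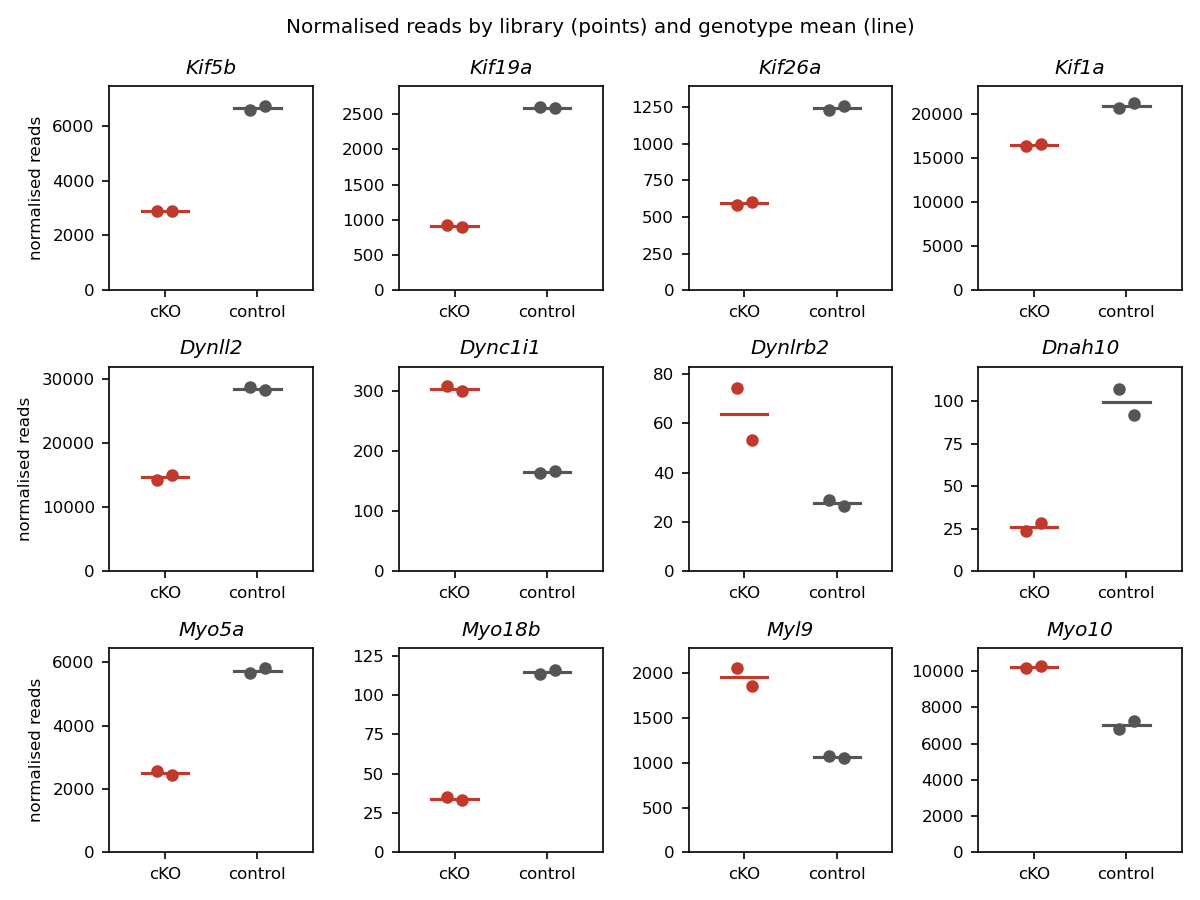
Normalised reads of selected motor genes in each library (points) with the genotype mean (line), on linear axes that start at 0. In every panel both cKO points are on one side of both control points, below them for Kif5b, Kif19a, Kif26a, Kif1a, Dynll2, Dnah10, Myo5a and Myo18b and above them for Dync1i1, Dynlrb2, Myl9 and Myo10.

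Cytoplasmic dynein is built from a heavy chain that holds the motor, intermediate and light intermediate chains, and several kinds of light chain. Of its 12 listed subunits, 8 fell and 4 rose. The most abundant motor transcripts were light chains of this complex, and both Dynll paralogs fell. Dynll2, a light chain that binds many partners as a dimer, had 14308 and 15112 normalised reads in the cKO libraries against 28793 and 28235 in the controls, 1.94-fold lower (-0.95 ± 0.03 on the log2 scale, limma adjusted p 5.3e-18). Its gene, ENSMUSG00000020483, lies on chromosome 11, 87979525 to 87987533 in GRCm38. Dynll1, its paralog, had 6014 and 6220.1 in the cKO libraries against 9759 and 8813 in the controls, 1.52-fold lower. Dynll2 fell further than Dynll1, so it was lower relative to Dynll1 in the cKO libraries. Their ratio per kilobase was 3.38 and 3.45 in the cKO libraries, against 4.19 and 4.55 in the controls, and the difference in the log2 ratio, -0.36, was -0.80 with both trends removed. Dynlt3, of the Tctex family of light chains, had 1752 and 1966 in the cKO libraries against 3133 and 3107 in the controls (log2 fold change -0.75), and was not called with the GC trend removed (-0.09) and was at -0.30 with both trends removed.

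The larger subunits of the complex moved by different amounts. Dync1h1, the heavy chain, had 10595 and 10473 normalised reads in the cKO libraries and 12407 and 12747 in the controls, 1.19-fold lower (-0.26 ± 0.03 on the log2 scale). That value turned to 0.18 with the length trend removed and was not called with relative log expression factors (-0.06). It was lower still with the GC trend removed (-0.60) or both trends removed (-0.31). Dync1li1 and Dync1li2, the light intermediate chains that bind cargo adaptors, fell together, with log2 fold changes of -0.67 and -0.66. Their ratio in the cKO libraries, 0.585 and 0.643, overlapped that in the controls, 0.602 and 0.629. The difference in the log2 ratio, -0.005, was -0.205 with both trends removed. An antisense gene shares 7.08% of Dync1li2's exon bases. The 2 intermediate chains, which bind dynactin, moved apart. Dync1i1, the form known from neurons, was higher, with 307 and 300.2 in the cKO libraries against 163 and 167 in the controls, 1.84-fold (0.88 ± 0.12 on the log2 scale, limma adjusted p 7.43e-07). Dync1i2, the widely expressed form, had 5131 and 5303 in the cKO libraries and 6033 and 5792 in the controls, and its difference of -0.18 on the log2 scale turned to 0.34 with the GC trend removed and to 0.01 with relative log expression factors. Dync1i1 stood at 0.139 and 0.131 times Dync1i2 per kilobase in the cKO libraries, against 0.0626 and 0.0668 times in the controls. This difference, 1.06 in the log2 ratio, was 0.14 with both trends removed.

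The remaining subunits were roadblock light chains or belonged to the dynein of cilia. Dynlrb2, a roadblock light chain of ciliated cells, rose at a low level, with 74.3 and 53.4 normalised reads in the cKO libraries against 29.0 and 26.5 in the controls (1.16 ± 0.27 on the log2 scale, limma adjusted p 0.000867). Dynlrb1, its abundant paralog, was at 0.15 on the log2 scale, turned to -0.26 with the GC trend removed and was not called without control 2 (limma adjusted p 0.298). Dync2h1 and Dync2li1, the heavy and light intermediate chains of the dynein that returns cargo inside cilia, moved in opposite directions, with log2 fold changes of -0.50 and 0.41. With both trends removed Dync2h1 turned to 0.07 and Dync2li1 was at 0.35, and with the length trend alone removed neither was called (-0.05 and 0.04), so the opposite directions did not hold there. Dctn4, a subunit at the pointed end of the dynactin complex and the 1 dynactin gene listed, had 2791 and 3013 in the cKO libraries against 3680 and 3674 in the controls. Its difference of -0.34 on the log2 scale turned to 0.17 with the GC trend removed.

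Axonemal dyneins drive the beating of motile cilia, and of 4 listed genes 3 rose and 1 fell. Dnali1, a light chain of the inner dynein arms, had 222 and 206 normalised reads in the cKO libraries against 116 and 98.8 in the controls, 2.00-fold higher (0.99 ± 0.15 on the log2 scale, limma adjusted p 2.75e-06). Dnah5, a heavy chain of the outer arms, had 171 and 195 in the cKO libraries against 115 and 105 in the controls, 1.66-fold higher (log2 fold change 0.73). Dnal4, a light chain and the most abundant of the 4 per kilobase, had 1343 and 1406 in the cKO libraries against 1063 and 1113 in the controls, and its difference of 0.34 on the log2 scale turned to -0.07 with the GC trend removed. Dnah10, a heavy chain of the inner arms, went the other way and had the largest fall of all 54 members. It had 23.7 and 28.5 in the cKO libraries against 107 and 91.6 in the controls, 3.81-fold lower (-1.89 ± 0.24 on the log2 scale, limma adjusted p 4.07e-07). Markers of ependymal cells, the ciliated cells that line the ventricles, were higher beside these genes. Of 12, 6 were listed and all 6 were higher, Dynlrb2 among them, with sums of 6689 and 6360 normalised reads in the cKO libraries and 3029 and 3038 in the controls. Foxj1, the transcription factor of motile cilia, had 5818 and 5519 in the cKO libraries against 2569 and 2617 in the controls. The part of ciliated cells in the values of the dynein genes was not tested.

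Myosin II is a pair of heavy chains with regulatory and essential light chains, and its nonmuscle forms tension actin in most cells. All 5 listed subunits were higher, although the signs of Myh9, Myh14 and Myl6 turned with the GC trend, or both trends, removed. Myl9, a regulatory light chain abundant in smooth muscle, had 2059 and 1851 normalised reads in the cKO libraries against 1072 and 1056 in the controls, 1.84-fold higher (0.88 ± 0.06 on the log2 scale, limma adjusted p 3.69e-12). Its gene, ENSMUSG00000067818, lies on chromosome 2, 156775420 to 156781658 in GRCm38. Myl12a, a regulatory light chain of nonmuscle cells, had 1499.9 and 1512 in the cKO libraries against 1037 and 1102 in the controls, 1.41-fold higher (log2 fold change 0.49). Its exons share 13.8% of their bases with Myl12b on the same strand and 6.16% with Myom1 on the opposite strand, so its value is uncertain. Myl6, the essential light chain and the most abundant myosin gene per kilobase, had 9634 and 9158 in the cKO libraries against 7594 and 7229.7 in the controls, and its difference of 0.34 on the log2 scale turned to -0.05 with both trends removed. The heavy chains moved by similar amounts. Myh9 had 3624 and 3496 in the cKO libraries against 2682 and 2717 in the controls (0.40 ± 0.04 on the log2 scale), and -0.01 with the GC trend removed, the opposite sign. Myh14 had 2188 and 2009 in the cKO libraries against 1626 and 1604 in the controls (0.38 ± 0.05 on the log2 scale), and -0.09 with the GC trend removed, the opposite sign. Myl9 and Myl12a kept their rise with both trends removed, at 0.34 and 0.25.

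Markers of other contractile and connective cells were higher beside the myosin II genes. Of 12 markers of mural and smooth muscle cells, 6 were listed and all 6 were higher, with sums of 4688 and 4464 normalised reads in the cKO libraries and 2776 and 2828 in the controls. Acta2, smooth muscle actin, had 914 and 888 in the cKO libraries against 339 and 352 in the controls. Of 10 fibroblast markers 9 were listed, 8 higher and 1 lower, with sums of 15372 and 14855 in the cKO libraries and 8016 and 8107 in the controls. The lower one, Pdgfra, is also on the precursor list. It held 2049 and 2077 of these sums in the cKO libraries and 3585 and 3908 in the controls. None of the listed markers was at 0 in any library, and the part of these cells in the values of the myosin genes was not tested.

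Promoter windows from RefSeq (GRCm38.p6), 250 bases before to 50 after a transcript start, were found for 43 of the 54 members, in 54 windows. The CArG box, the motif bound by serum response factor, a regulator of contractile genes, was found in 1.63% of all 32851 windows. It was present in 3 of 18 myosin windows, 1 of 21 kinesin windows (Kif20b) and 0 of 15 dynein windows. The 3 myosin windows, of Myl9, Myl6 and Myo1e, are shown with the box in capitals, and were picked with the directions known. These genes were higher in cKO cells, but Myl6 turned to -0.05 with both trends removed. Myo1e was not called with the GC trend removed (0.11). Kif20b, whose window also holds the box, was lower (log2 fold change -0.99). In Myl9 (chr2:156775214-156775513, + strand) the box starts 161 bases before the transcript start, in Myl6 (chr10:128492960-128493259, - strand) 50 bases before the second of its 2 listed starts, and in Myo1e (chr9:70207100-70207399, + strand) 32 bases before. The window of the first Myl6 start held no CArG box. The window of Myo5a (chr9:75070956-75071255, + strand), which was lower, is set beside them with its Sox-family motif ACAATG in capitals, 50 bases before the start.
Myl9: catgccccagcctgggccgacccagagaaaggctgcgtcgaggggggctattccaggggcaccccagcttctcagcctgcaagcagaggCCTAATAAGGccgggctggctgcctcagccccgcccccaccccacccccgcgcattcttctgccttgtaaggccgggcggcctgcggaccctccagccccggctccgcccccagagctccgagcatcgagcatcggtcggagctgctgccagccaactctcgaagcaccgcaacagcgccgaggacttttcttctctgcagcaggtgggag
Myl6: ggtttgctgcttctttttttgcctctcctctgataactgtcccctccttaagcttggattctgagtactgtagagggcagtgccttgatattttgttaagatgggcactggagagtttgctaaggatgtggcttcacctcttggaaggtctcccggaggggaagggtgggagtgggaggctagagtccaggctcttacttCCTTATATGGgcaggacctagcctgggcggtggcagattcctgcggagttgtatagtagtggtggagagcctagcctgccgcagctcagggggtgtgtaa
Myo1e: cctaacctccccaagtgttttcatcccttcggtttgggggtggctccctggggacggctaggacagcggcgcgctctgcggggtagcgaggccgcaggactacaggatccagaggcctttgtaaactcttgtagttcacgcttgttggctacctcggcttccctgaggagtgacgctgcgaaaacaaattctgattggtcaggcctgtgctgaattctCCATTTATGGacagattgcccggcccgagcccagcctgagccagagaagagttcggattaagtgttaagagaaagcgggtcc
Myo5a: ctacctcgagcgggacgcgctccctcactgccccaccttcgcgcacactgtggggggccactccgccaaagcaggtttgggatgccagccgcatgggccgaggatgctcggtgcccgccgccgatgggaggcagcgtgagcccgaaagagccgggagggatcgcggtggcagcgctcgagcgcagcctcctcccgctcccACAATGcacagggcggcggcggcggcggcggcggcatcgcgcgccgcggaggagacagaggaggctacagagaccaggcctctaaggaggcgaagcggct
Both strands were searched, each motif on its own, so matches of different motifs may share bases. ACAATG was in 12.6% of all windows and in 1 of 18 myosin, 2 of 21 kinesin and 2 of 15 dynein windows. ACAAAG, also of the Sox family, was in 18.7% of all windows and in 2 myosin, 2 kinesin and 6 dynein windows. The E-box CAGCTG was in 16.3% of all windows and in 4 myosin, 3 kinesin and 2 dynein windows. The TEAD motif CATTCC was in 14.7% of all windows and in 3 myosin, 0 kinesin and 2 dynein windows. CCAAT was in 37.4% of all windows and in 6 myosin, 6 kinesin and 5 dynein windows. A match is a description of these letters, and no binding was measured.

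Unconventional myosins carry cargo or link actin to membranes, and of 11 listed genes 6 rose and 5 fell, with the steepest changes downward. Myo5a, which moves vesicles and organelles along actin, had 2554 and 2431 normalised reads in the cKO libraries against 5641 and 5797 in the controls, 2.29-fold lower (-1.20 ± 0.04 on the log2 scale, limma adjusted p 1.17e-17). Its gene, ENSMUSG00000034593, lies on chromosome 9, 75071015 to 75223688 in GRCm38. Myo1d, a membrane-linked myosin found in myelin, had 79.2 and 48.7 in the cKO libraries against 139 and 187 in the controls, 2.55-fold lower (-1.36 ± 0.21 on the log2 scale, limma adjusted p 5.18e-06). The 2 cKO libraries differed more in Myo1d than in the other 53 members, relative to their mean, and both lay below the controls. Myo18b, known from striated muscle, was low, with 35.1 and 33.2 in the cKO libraries against 113 and 116 in the controls, 3.35-fold lower. Myo6, the myosin that walks toward the opposite end of actin filaments and takes part in endocytosis, was the most abundant of the group per kilobase in both genotypes. It had 12979 and 12577 in the cKO libraries against 15770 and 16225 in the controls, and its log2 fold change of -0.32 was 0.00 with the GC trend removed and turned to 0.13 with both trends removed. Myo9a, a class IX myosin, had a log2 fold change of -1.01 (SE 0.08), and -0.43 with both trends removed.

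Among the myosins that rose were relatives of Myo1d. Myo1c, which links membranes to actin, had 797 and 863 normalised reads in the cKO libraries against 455 and 549 in the controls, 1.65-fold higher (0.73 ± 0.09 on the log2 scale). Myo1d was therefore lower while Myo1c and Myo1e were higher. Myo10, which extends filopodia, had 10195 and 10272 in the cKO libraries against 6785 and 7235 in the controls, 1.46-fold higher (0.55 ± 0.04 on the log2 scale). Myo1e, Myo16 and Myo7a, a myosin of sensory hair cells, had log2 fold changes of 0.33 to 0.47, and none of these 3 was called with the GC trend removed (0.07 to 0.11).

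Balances within families were compared in 13 pairs of paralogs or partners, chosen with earlier results known. Ratios were taken within a library and per kilobase, so a scaling factor cancels. The ratio of Myo1d to Myo1c differed most, at 0.101 and 0.0574 in the cKO libraries against 0.311 and 0.348 in the controls. That is 4.31-fold lower, -2.11 in the log2 ratio and -2.03 with both trends removed. The ratio of Myo5a to Myo6 was 0.161 and 0.158 in the cKO libraries against 0.292 in each control, and its difference of -0.87 was -0.90 with both trends removed. Myo6 was near Myo10 in the cKO libraries, at 1.07 and 1.03 times, against 1.95 and 1.88 times in the controls, a difference of -0.87 that was -0.25 with both trends removed. The ratio of Klc4 to Klc1 was 0.270 and 0.302 in the cKO libraries against 0.191 and 0.218 in the controls (0.49, and 0.32 with both trends removed). The ratio of Kif21a to Kif21b was 0.644 and 0.602 in the cKO libraries against 0.892 and 0.907 in the controls (-0.53, and -0.20 with both trends removed). In 12 of the 13 pairs the cKO libraries did not overlap the controls, the exception being Dync1li1 to Dync1li2. Listed genes themselves were selected for difference, 46.7% with both cKO values above both controls and 53.3% below. The share among other pairs of listed genes was not computed, so this count is not a result about families. With 2 libraries per genotype the smallest two-sided p that an exact permutation test allows is 0.333, so no test is given.

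**Figure D3:**
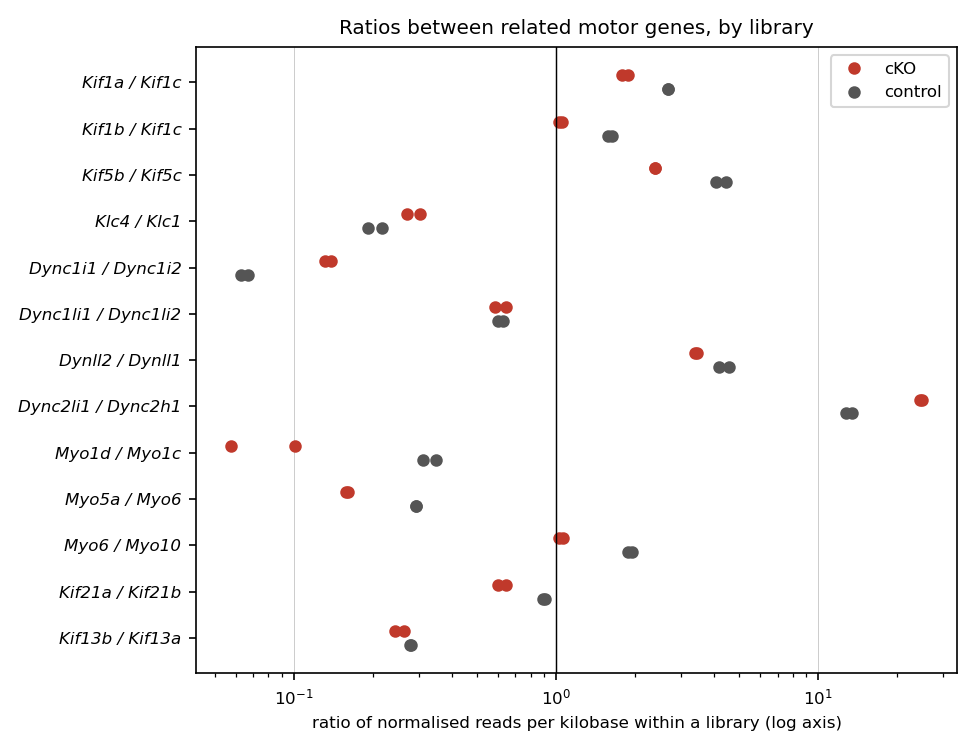
Ratio between paired motor genes in normalised reads per kilobase, in each cKO and control library, on a log axis. The genotypes lie farthest apart for Myo1d against Myo1c and overlap for Dync1li1 against Dync1li2.

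The order of levels differed at the top. In controls Dynll2 led by far, at 10422 normalised reads per kilobase, against 4847 for Dynlrb1. In cKO cells these 2 light chains did not differ beyond their spread, Dynll2 at 5229 and 5524 and Dynlrb1 at 5233 and 5530 in the libraries. Next in cKO cells came Myl6 (2948), Kif1a (1769), Myl9 (1683) and Dynll1 (1573), and in controls Dynll1 (2387), Myl6 (2326), Kif1a (2244) and Klc1 (1616). In cKO cells Myl9 overlapped both Kif1a and Dynll1 between libraries, and in the controls Dynll1, Myl6 and Kif1a overlapped. Myosin genes held a larger share of all motor reads per kilobase in cKO cells, 26.1% and 24.7%, against 17.0% and 17.4% in controls. Dynein and dynactin genes held 50.1% and 51.9% in cKO cells, against 58.2% and 57.1% in controls. Kinesins held 23.8% and 23.4% in cKO cells, against 24.8% and 25.5% in controls. Light chains of myosin made up most of the myosin difference, with 15.4% and 14.3% in cKO cells against 8.70% and 8.61% in controls. Sums of unconventional myosins overlapped, at 3050 and 3008 in cKO cells and 3000 and 3130.5 in controls. Shares were not recomputed with a trend removed, and the log2 fold change of Myl6 was 0.02 with the GC trend removed.

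Motors act through adaptors and regulators, and a list of 79 such names held 42 listed genes, 27 lower and 15 higher. Their median was -0.36 on the log2 scale. Over all listed genes 53.3% were lower and 46.7% higher, with a median of -0.22. With the GC trend removed 25 of the 42 were lower and 5 higher, where 40.4% of listed genes were lower and 29.0% higher. The dynein list had 9 lower and 4 higher. Nin and Bicd1, which tie dynein to cargo or centrosomes, fell 2.88-fold and 2.71-fold, and Hook3, a similar adaptor, had 1122 and 1153 normalised reads in the cKO libraries against 3000 and 2999 in the controls. Pafah1b1, also named Lis1, which activates dynein, had 4923 and 5106 in the cKO libraries against 8641 and 8587 in the controls, 1.72-fold lower. With both trends removed these 4 were still below 0, at -1.15, -0.39, -0.36 and -0.16. Higher in the dynein list were Rilp, Capzb, Numa1 and Nde1, with log2 fold changes of 1.15, 0.26, 0.24 and 0.19. With both trends removed Rilp was at 0.58, and Capzb, Numa1 and Nde1 turned to -0.08, -0.01 and -0.01. The kinesin list had 9 lower and 3 higher. Map7, which brings kinesin-1 to microtubules, had 221 and 183 in the cKO libraries against 783 and 692 in the controls, 3.65-fold lower (log2 fold change -1.87), the largest change of the whole list. Trak2 and Trak1, which link kinesin-1 to mitochondria, had log2 fold changes of -0.75 and 0.32, though Trak1 turned to -0.08 and was not called with the GC trend removed (limma adjusted p 0.134).

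The myosin list was divided, 9 lower and 8 higher. Gipc1, an adaptor of Myo6, had 4804 and 4635 normalised reads in the cKO libraries against 9859 and 9911 in the controls, 2.09-fold lower (log2 fold change -1.07, and -1.65 with both trends removed). Rock1 and Rock2, kinases that raise myosin II activity, had log2 fold changes of -1.16 and -0.60, while Mylk, the kinase of the regulatory light chains, had 0.65, not called with the GC trend removed (0.30). The sign of Rock2 turned to 0.04 with both trends removed. All 4 tropomyosin genes, whose products coat actin filaments, were higher, with log2 fold changes of 0.84 for Tpm2, 0.43 for Tpm1, 0.21 for Tpm4 and 0.15 for Tpm3, but Tpm2 and Tpm3 were not called with both trends removed (0.38 and 0.07, limma adjusted p 0.152 and 0.199).

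The direction of 25 of the 54 members, and their call, held under every alternative processing that was run. Among them were Kif19a, Kif5b, Kif26a, Kif21a, Kif1a, Kif3a, Kif9, Dynll2, Dynll1, Dync1li1, Dync1li2, Dync1i1, Dynlrb2, Dnah10, Dnah5, Dnali1, Myl9, Myl12a, Myo5a, Myo1c, Myo1d, Myo10, Myo18b and Myo9a. In 20 members the sign turned under at least 1 alternative, in each case where a trend with GC content or length was removed or the scaling was changed. DESeq2 and edgeR on the recovered reads called 54 and 53 of the 54 in the same direction as limma, and the largest adjusted p among them in the authors' deposited table was 0.0425.

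**Figure D4:**
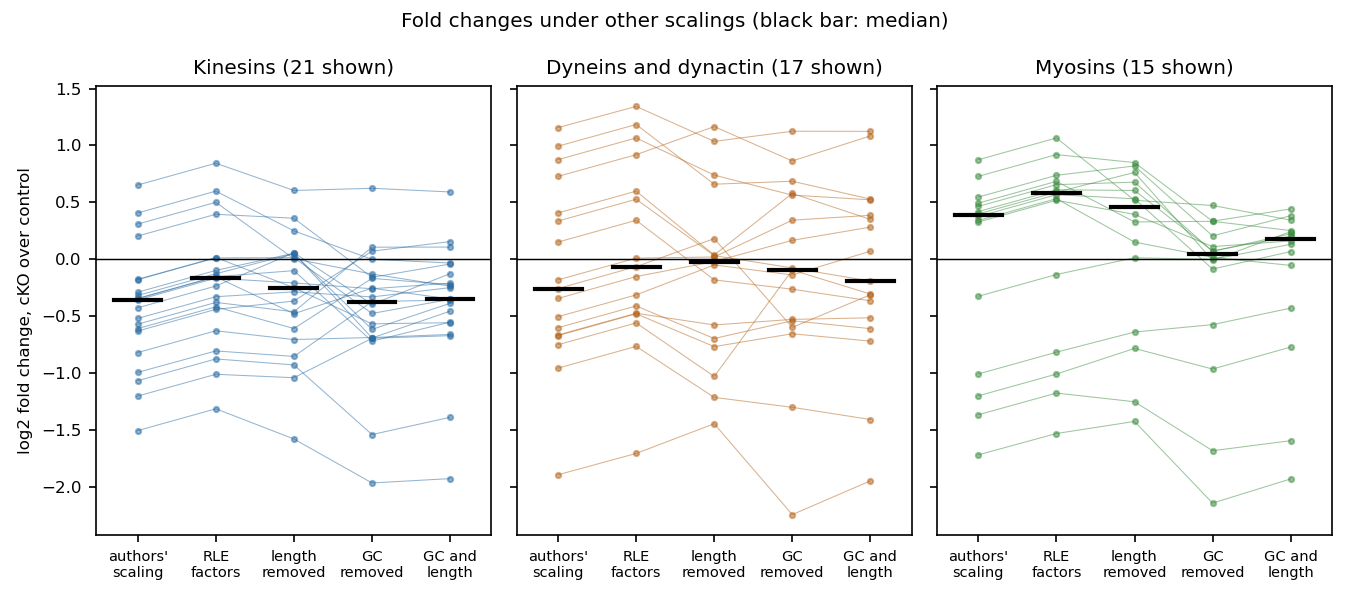
Log2 fold change of each motor gene, cKO over control, by class, with the authors' scaling, with relative log expression (RLE) factors and with trends with length, GC content or both removed (points joined by gene, 15 myosins shown, black bars for the medians of whole classes). The kinesin median lies between -0.37 and -0.16 throughout, and the myosin median is highest with RLE factors (0.58) and lowest with the GC trend removed (0.04).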

How the data were processed

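RNA of cKO and control oligodendrocytes was sequenced in 4 libraries, 2 per genotype. The authors deposited 1 table per the file headers, holding each gene's normalised signal in each library, log2 fold changes and p-values. Per the submitters' processing notes DESeq2 was used, with the builds mm10 and GRCm38. An aligner, a counter, an annotation release and a strand setting are not given in the sources used here. In each library 100% of the deposited signal values were whole multiples of 1 step within 0.01 read, so whole reads could be recovered. The sums given are over listed genes, not whole libraries.

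Genotypes were compared with limma 3.58.1 (R 4.3.3), with a variance trend, on log2(value + 1), with no term but genotype, which leaves 2 residual degrees of freedom. A gene needed a value of at least 1 in 2 libraries, which all 6940 passed. Fold changes are on that scale and understate changes of low genes. Benjamini-Hochberg adjustment took 17347 genes, and an adjusted p under 0.05 was called. GC content came from the longest GENCODE M21 transcript of 6934 genes (99.91%). Length, also used for values per kilobase, was the gene length that the authors deposited. Trends were splines with 5 degrees of freedom. Alternatives were pseudocounts of 0.5 and 8, filters, relative log expression factors, GC and length trends, a replicate block, edgeR 4.0.16, DESeq2 1.42.0, adjustment over listed genes and each library left out. The fits were tested on simulated data.

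The members and lists were chosen with earlier results of these data known. Values of every library are given for the 2 members of each of 9 roles with the largest rises, the 2 with the largest falls, the 1 with the highest level per kilobase, and a set picked by name, 40 in all, 1 of which is not reported here, though counts and medians include it. Markers and partners came from written lists. Promoter windows came from RefSeq.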

Additional observations from a re-analysis of the deposited data

How the results depend on the processing

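Results were recomputed under the settings named in the methods and under 1 chosen after seeing the data, in which GC and length trends were removed and relative log expression factors were used. Pseudocounts of 0.5 and 8, no filter, a minimum value of 50, adjustment over the listed genes, DESeq2 and the replicate block changed the call of none of the 54 members and no count by over 1.5 times. Same-numbered libraries did not deviate together (correlation 0.0133 over all genes). With 1 difference per genotype this cannot exclude pairing, and the labels do not say what a shared number marks. With the block 3242 listed genes were higher and 3696 lower. On the recovered reads edgeR called 3244 listed genes higher and 3597 lower, and DESeq2 3237 and 3690. edgeR gave medians of -0.237 for motor genes, -0.289 for kinesins, -0.186 for dyneins and 0.461 for myosins.

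Relative log expression factors gave medians of -0.111 for motor genes, -0.165 for kinesins, -0.064 for dyneins and 0.579 for myosins, and turned Dync1i2 (0.011), Kif13a (0.013) and Klc1 (0.016). With the GC trend removed 2008 listed genes, 13 motor genes, 1 kinesin, 5 myosins and 5 partners were higher, and the medians were -0.147, -0.371, -0.094 and 0.044 for motor genes, kinesins, dyneins and myosins. It turned Dctn4 (0.167), Dnal4 (-0.075), Dync1i2 (0.344), Dynlrb1 (-0.262), Kif18a (0.072), Kif1c (-0.158), Kif2a (0.107), Klc4 (-0.129), Myh14 (-0.085), Myh9 (-0.008) and Myo6 (0.0). With the length trend removed the medians were 0.009 for motor genes, -0.249 for kinesins, -0.019 for dyneins and 0.457 for myosins. It turned Dync1h1 (0.182), Dync1i2 (0.021), Dynlrb1 (-0.18), Kif13a (0.015), Kif13b (0.05), Kif1b (0.058), Kif21b (0.054) and Myo6 (0.014).

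With both trends removed 1994 listed genes, 1 kinesin and 7 partners were higher, and the medians were -0.200 for motor genes, -0.191 for dyneins and 0.183 for myosins. It turned Dctn4 (0.283), Dnal4 (-0.191), Dync1i2 (0.387), Dync2h1 (0.072), Dynlrb1 (-0.364), Kif18a (0.156), Kif1c (-0.041), Kif2a (0.108), Kifc1 (-0.032), Klc4 (-0.235), Myl6 (-0.053) and Myo6 (0.132). Both trends removed with relative log expression factors gave 1845 listed genes, 21 motor genes, 10 kinesins and 16 partners lower, medians of -0.009 for motor genes, -0.157 for kinesins and 0.000 for dyneins, and 0.114 over all listed genes. It turned Dctn4 (0.473), Dync1i2 (0.578), Dync2h1 (0.263), Dynlrb1 (-0.172), Kif18a (0.346), Kif1b (0.064), Kif2a (0.3), Klc4 (-0.044) and Myo6 (0.323).

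Without 1 library each in turn the medians ranged from -0.308 to -0.269 for motor genes, from -0.412 to -0.365 for kinesins, from -0.275 to -0.236 for dyneins and from 0.357 to 0.432 for myosins, and no member turned. Counts moved by less than 1.5 times, and Dynlrb1 and Kif13a lost their call without control 2. Other members kept their sign but lost their call. These were Dync1h1, Kif13b and Kif21b with relative log expression factors, Dync2h1, Dynlt3, Kif11, Kif20b, Kifc1, Myl6, Myo16, Myo1e and Myo7a with the GC trend removed, Dctn4, Dnal4, Dync2h1, Dync2li1 and Klc4 with the length trend removed, Kif11, Kif16b, Kif20b, Myh14 and Myo7a with both removed, and Kif13a with edgeR. With both trends removed and relative log expression factors they were Dnal4, Dynlt3, Kif11, Kif16b, Kif20b, Kif5c and Kifc1. Why the results moved was not tested. Only called genes were listed, 2 libraries a genotype leave 2 residual degrees of freedom, and the spread of genes with few reads rests on the trend over all genes.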
